A study of Mus musculus with 4 samples.

Results

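Amino acid transporters were followed across the cell types of mouse pancreatic islets. The members are 10 listed genes, Slc7a8, Slc7a5, Slc3a2, Slc7a1, Slc7a2, Slc38a1, Slc38a2, Slc38a4, Slc38a5 and Slc1a5, all 10 of which are among the 32285 genes counted. The study profiled islets of C57BL/6 mice by 10x Genomics 3-prime single-cell RNA sequencing in 4 libraries, 1 for each genotype and treatment. The groups set against each other here were Malat1-null islets (genotype Malat1-/-) treated with TCDD and wild-type islets treated with TCDD; both carry the TCDD treatment. The 2 libraries of DMSO, the solvent, were not used here, and TCDD itself was therefore not compared. Islets were freed with collagenase, purified on a density gradient and cultured. The dioxin TCDD is a ligand of the aryl hydrocarbon receptor (AhR), and Malat1 is an abundant nuclear long non-coding RNA. The labels describe neither the kind of Malat1 allele, nor the sex, age or number of the mice, nor the dose and time of TCDD. Each group has 1 library and thus no replicate, so nothing was tested and p-values are not given; every interval is a 95% interval that covers counting error only. Genotype and library, with all that differs between mice or preparations, cannot be told apart.

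Cells cannot make many of the amino acids they need and take them up through membrane carriers of the SLC families. Slc3a2 is a heavy chain (4F2hc, CD98) that brings several light chains, among them Slc7a5 (LAT1) and Slc7a8 (LAT2), to the cell surface, where they exchange large neutral amino acids such as leucine. Slc7a1 and Slc7a2 carry the cationic amino acids arginine and lysine; the Slc38 carriers and Slc1a5 take up small neutral amino acids, glutamine and alanine among them. In islets, glutamine and arginine stimulate glucagon release, leucine and arginine promote insulin release, and in mice Slc38a5 is known as a carrier that alpha cells induce when blood amino acids are high.

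Barcodes with at least 1000 UMIs (unique transcript molecules) numbered 3198 in the Malat1-null library of 134950186 UMIs and 2166 in the wild-type library of 81872519 UMIs. After filters 2904 Malat1-null and 2080 wild-type barcodes were clustered together without the transporters and the other listed genes, and clusters were named from marker genes. The labels call all cells beta cells, but 12 classes were named in both libraries, so "beta-like", "alpha-like" and so on mean marker-defined classes. The beta-like class, led by insulin, held 1809 Malat1-null and 919 wild-type barcodes, at medians of 47477 UMIs in Malat1-null and 61234 in wild type. The alpha-like class, led by glucagon (Gcg), held 66 Malat1-null and 30 wild-type barcodes at medians of 15361 UMIs in Malat1-null and 26559.5 in wild type. In 1 alpha-like cluster 49 barcodes were all Malat1-null, and the other held 17 Malat1-null and 30 wild-type barcodes. Malat1 itself stood at 0.276 CPM (UMIs per 1000000 UMIs) in Malat1-null and 9650 CPM in wild-type beta-like barcodes, in the direction of the labels. Levels below are CPM with TMM factors (a scaling that leaves out the genes that differ most) unless total UMIs are named. Levels of Malat1 and of free RNA are always per total UMIs, without TMM factors. A 3-prime library counts molecule ends, so UMIs were not divided by gene length. Free RNA outside cells reaches every barcode: insulin made up 1.84% of UMIs in Malat1-null and 0.174% in wild-type T- or NK-like barcodes. In the barcodes kept, the insulin level puts free RNA at up to 3.75% of the UMIs of any class other than beta. Barcodes outside beta-like clusters with at least 10% of the median beta-like insulin share were left out first, which held this figure down.

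The acinar-like class is left out of what follows except where named. Its 21 Malat1-null barcodes held a median of 4087 UMIs and its 264 wild-type barcodes 1626.5 UMIs, with Malat1 at 148 CPM in the wild-type ones, and 66.7% of its 1335 measured genes came out beyond 1.5-fold lower and 1.57% higher in Malat1-null. None of the members measured there, Slc3a2 and Slc38a2, was beyond that fold.

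Alpha-like barcodes carried the highest levels of 4 of the 10 transporters in both libraries: Slc7a8, Slc7a2, Slc38a4 and Slc38a5. The share of all genes highest in alpha-like barcodes was not counted, so whether 4 of 10 is unusual cannot be said. Promoters are shown because these 4 genes share a highest class. RefSeq (build GRCm38.p6) gave promoters (250 bases before to 50 after a start) for 6 of the 10 members, Slc7a8, Slc38a4 and Slc38a5 among the alpha-led ones. Capitals mark matches, on either strand, to any of 6 short motifs chosen after a first search of these promoters: TAATTA (homeodomain core), TGTTTNC (forkhead core), TGCTGA (MAF site), TGATGNAA (C/EBP-ATF composite), GCGTG (core of the AhR response element) and CACGTG (E-box).
Slc7a8, chr14:54781837-54782136, minus strand: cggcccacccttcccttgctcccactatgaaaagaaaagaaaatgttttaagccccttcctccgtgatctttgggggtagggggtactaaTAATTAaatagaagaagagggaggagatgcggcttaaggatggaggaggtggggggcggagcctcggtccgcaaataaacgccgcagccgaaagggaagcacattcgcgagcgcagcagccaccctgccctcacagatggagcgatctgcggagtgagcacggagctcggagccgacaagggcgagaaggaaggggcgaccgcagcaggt
Slc38a4, chr15:97055907-97056206, minus strand: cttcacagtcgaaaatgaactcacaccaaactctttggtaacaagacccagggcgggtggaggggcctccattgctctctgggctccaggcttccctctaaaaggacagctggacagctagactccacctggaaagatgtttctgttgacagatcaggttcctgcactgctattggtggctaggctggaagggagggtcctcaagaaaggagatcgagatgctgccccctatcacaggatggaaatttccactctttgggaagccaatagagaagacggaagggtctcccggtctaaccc
Slc38a5, chrX:8271131-8271430, plus strand: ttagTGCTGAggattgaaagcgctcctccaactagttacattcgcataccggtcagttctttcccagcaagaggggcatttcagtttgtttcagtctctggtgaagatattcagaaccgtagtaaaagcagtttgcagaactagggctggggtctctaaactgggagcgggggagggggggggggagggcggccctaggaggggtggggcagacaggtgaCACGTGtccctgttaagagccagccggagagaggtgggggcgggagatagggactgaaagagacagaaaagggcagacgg
The Slc7a8 promoter held 1 match, TAATTA at base 91, a motif found in 5.29% of all 32851 promoters of this length. The Slc38a5 promoter held TGCTGA at base 5, found in 19.5% of promoters, and CACGTG at base 221, found in 7.15%. No match was found in this Slc38a4 promoter; one of its other annotated starts holds GCGTG, which is in 32.4% of promoters. TGTTTNC and TGATGNAA, found in 20.5% and 3.97% of promoters, had no match in the 3 windows shown, and none of the 6 was shared by them. The matches printed do not overlap each other, and a match says only that the letters are present.

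Slc7a8, the light chain LAT2 that exchanges neutral amino acids, lies on chromosome 14 of build GRCm38 (54722209 to 54781946, minus strand) and, like all 10 members, is annotated as a protein-coding gene. It stood at 208 CPM (interval 184 to 234; 269 UMIs) in Malat1-null and 89.6 CPM (71.5 to 111; 84 UMIs) in wild-type alpha-like barcodes. Macrophage-like barcodes came next with 80.6 CPM (35 UMIs) in Malat1-null and 32.4 CPM (7 UMIs) in wild type, then beta-like barcodes with 59.8 CPM (57.8 to 62.0) in Malat1-null and 31.7 CPM (29.9 to 33.5) in wild type. Intervals of macrophage-like and beta-like barcodes overlapped in both libraries, and alpha-like barcodes stood apart from both. The alpha-like level was 3.48 times the beta-like one (3.06 to 3.94) in Malat1-null and 2.83 times (2.24 to 3.53) in wild type; scaled to total UMIs, of which insulin takes over 50% in beta-like barcodes, the gap was wider, with 258 CPM against 34.03 CPM in Malat1-null and 106 CPM against 20.7 CPM in wild type. Slc7a8 was not seen in endothelial-like or ductal-like barcodes of either library. In endothelial-like ones the exact interval of 0 UMIs reached up to 3.95 CPM in Malat1-null and 1.95 CPM in wild type.

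Slc7a2, the cationic carrier CAT2 (chromosome 8, 40862396 to 40922308, plus strand), stood at 180 CPM (158 to 205) in Malat1-null and 224 CPM (195 to 256) in wild-type alpha-like barcodes. Beta-like barcodes held 50.3 CPM (48.4 to 52.2) in Malat1-null and 48.5 CPM (46.4 to 50.8) in wild type, and PP-like barcodes 34.4 CPM in Malat1-null and 48.6 CPM in wild type. The alpha-like level was thus 3.59 times (3.12 to 4.10) the beta-like one in Malat1-null and 4.62 times (3.98 to 5.33) in wild type. No Slc7a2 UMI was found in either library in T- or NK-like, B-cell-like, Jchain-led B-cell-like or endothelial-like barcodes. Slc7a1, the related carrier CAT1 (chromosome 5, 148327410 to 148399904, minus strand), had no such class: its levels ran between 6.91 and 45 CPM in Malat1-null classes and between 15.1 and 50.4 CPM in wild-type ones, and intervals of neighbours in the order overlapped throughout.

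Slc38a4, a carrier of small neutral amino acids, was shared by alpha-like and beta-like barcodes. It stood at 234 CPM (209 to 262) in Malat1-null and 210 CPM (182 to 242) in wild-type alpha-like barcodes. Beta-like barcodes held 135 CPM (132 to 138) in Malat1-null and 109 CPM (106 to 113) in wild type. The next class, PP-like, had 14.2 CPM (7 UMIs) in Malat1-null and 17.5 CPM (14 UMIs) in wild type, and delta-like barcodes had 7.58 CPM (9 UMIs) in Malat1-null and 4.13 CPM (3 UMIs) in wild type. The alpha-like, beta-like and PP-like intervals did not overlap in either library. Slc38a4, Slc38a2 and Slc38a1 lie on the minus strand of chromosome 15 within 484539 bases (96571418 to 97055956), with 3 different highest classes.

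Slc38a5, a glutamine carrier on the X chromosome (8271133 to 8280179, plus strand), was nearly confined to alpha-like barcodes among the endocrine classes. It stood at 131 CPM (112 to 152; 169 UMIs) in Malat1-null and 89.6 CPM (71.5 to 111; 84 UMIs) in wild-type alpha-like barcodes, against 0.505 CPM (27 UMIs) in Malat1-null and 0.158 CPM (6 UMIs) in wild type in beta-like ones. That is 259 times (172 to 405) the beta-like level in Malat1-null and 566.5 times (249.7 to 1588) in wild type. In delta-like, PP-like and ductal-like barcodes it had 8 UMIs in all in Malat1-null and 5 in wild type; other classes had none, apart from 24 UMIs in wild-type acinar-like barcodes. Those UMIs made 48.2 CPM (30.9 to 71.7), an interval that overlaps the wild-type alpha-like one, or 13.3 CPM against 106 CPM when scaled to total UMIs. Its free-RNA level was 0.436 CPM (1 UMI) in Malat1-null and 3.05 CPM (7 UMIs) in wild type.

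Of 5013 genes with at least 50 CPM in a class of both libraries, 17.5% were highest in the same class in both and at least 2-fold above the next class; of the 8 members that met this minimum, Slc7a8 and Slc7a2 did so. Slc38a5 joined them once the acinar-like class was left out of the order, an alternative added after seeing the data, and scaling to total UMIs raised the count to 5. The share of all genes so marked was counted in the main order only, so these 2 alternatives have no background share beside them. Slc38a4, highest in alpha-like barcodes too, was above the beta-like level by 1.73 times (1.54 to 1.95) in Malat1-null and 1.92 times (1.66 to 2.22) in wild type.

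**Figure D1:**
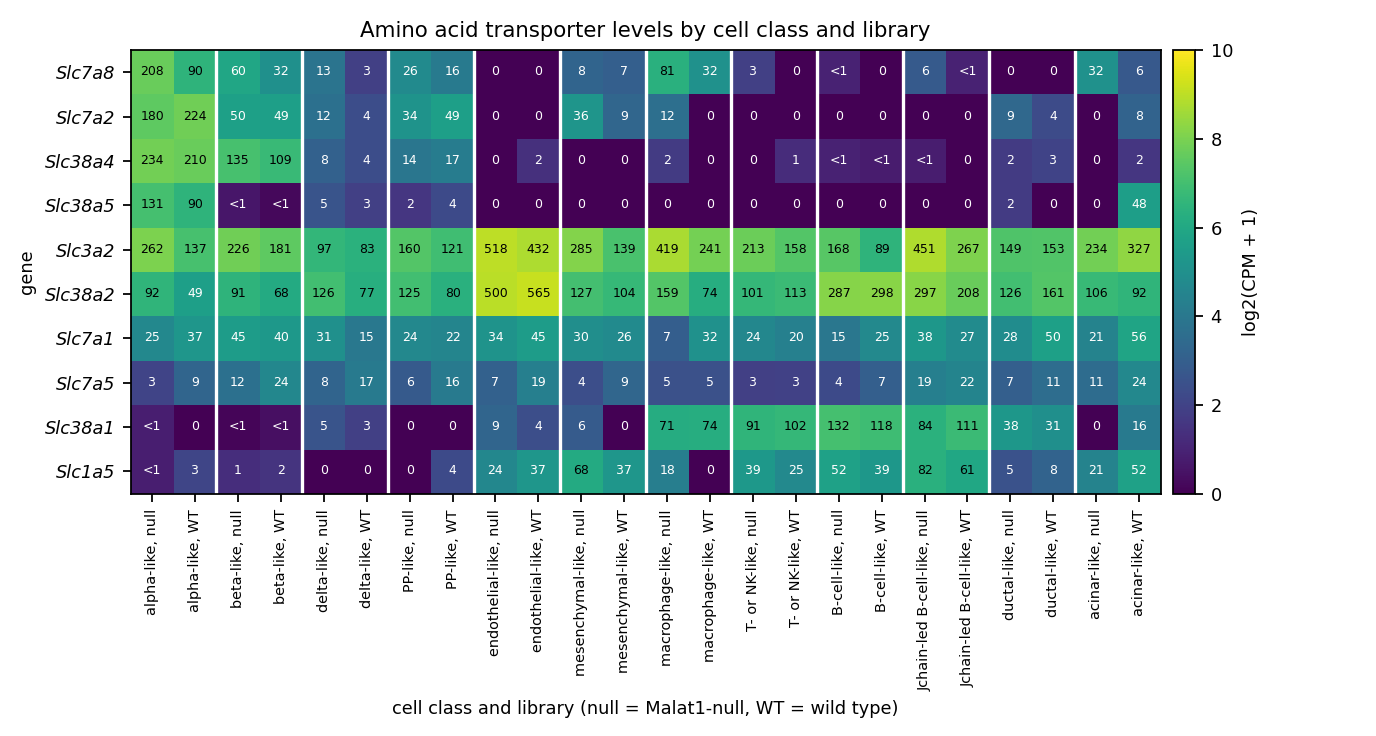
Level of the 10 transporters (rows) in 12 marker-defined cell classes, Malat1-null left of wild type in each pair; colour is log2(CPM + 1) and printed numbers are CPM. The 4 upper rows are highest in alpha-like barcodes, Slc3a2 and Slc38a2 in endothelial-like ones, and Slc38a1 and Slc1a5 in lymphocyte-like ones.

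Slc3a2, the heavy chain (chromosome 19, 8706882 to 8723369, minus strand), was present in every class, between 96.8 and 518 CPM in Malat1-null and between 82.6 and 432 CPM in wild type. It was highest in endothelial-like barcodes, with 518 CPM (473 to 566) in Malat1-null and 432 CPM (403 to 463) in wild type, and lowest in delta-like ones. Jchain-led B-cell-like barcodes, a B-cell cluster led by the antibody genes Igkc and Jchain, held 451 CPM in Malat1-null and 267 CPM in wild type, and macrophage-like ones 419 CPM in Malat1-null and 241 CPM in wild type. The interval of the Jchain-led class overlapped the endothelial-like interval in Malat1-null and not in wild type.

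Light chains were set against the heavy chain as UMIs per UMI, which no scaling changes. The 6 light chains counted were Slc7a5, Slc7a6, Slc7a7, Slc7a8, Slc7a10 and Slc7a11, the last the cystine carrier xCT. Alpha-like barcodes held 0.858 light-chain UMIs per Slc3a2 UMI (0.731 to 1.01) in Malat1-null and 0.781 (0.595 to 1.02) in wild type, mostly Slc7a8. Beta-like barcodes held 0.410 (0.397 to 0.424) in Malat1-null and 0.384 (0.367 to 0.401) in wild type. Endothelial-like barcodes, where Slc3a2 was highest, held 0.176 (0.138 to 0.222) in Malat1-null and 0.197 (0.165 to 0.233) in wild type, and T- or NK-like ones 0.0909 in Malat1-null and 0.0567 in wild type. Macrophage-like barcodes reached 1.05 (0.857 to 1.30) in Malat1-null and 1.15 (0.783 to 1.71) in wild type, with Slc7a11 at 292 CPM in Malat1-null and 227 CPM in wild type and Slc7a7, a light chain that exchanges cationic for neutral amino acids, at 57.6 CPM (25 UMIs) in Malat1-null and 13.9 CPM (3 UMIs) in wild type. Within each of these classes the intervals of the 2 libraries overlapped, while those of alpha-like and beta-like barcodes did not overlap in either library. Ductal-like barcodes, 16 in Malat1-null, held 0.0952 (0.0337 to 0.219; 6 light-chain UMIs) in Malat1-null and 0.298 (0.261 to 0.341) in wild type.

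**Figure D2:**
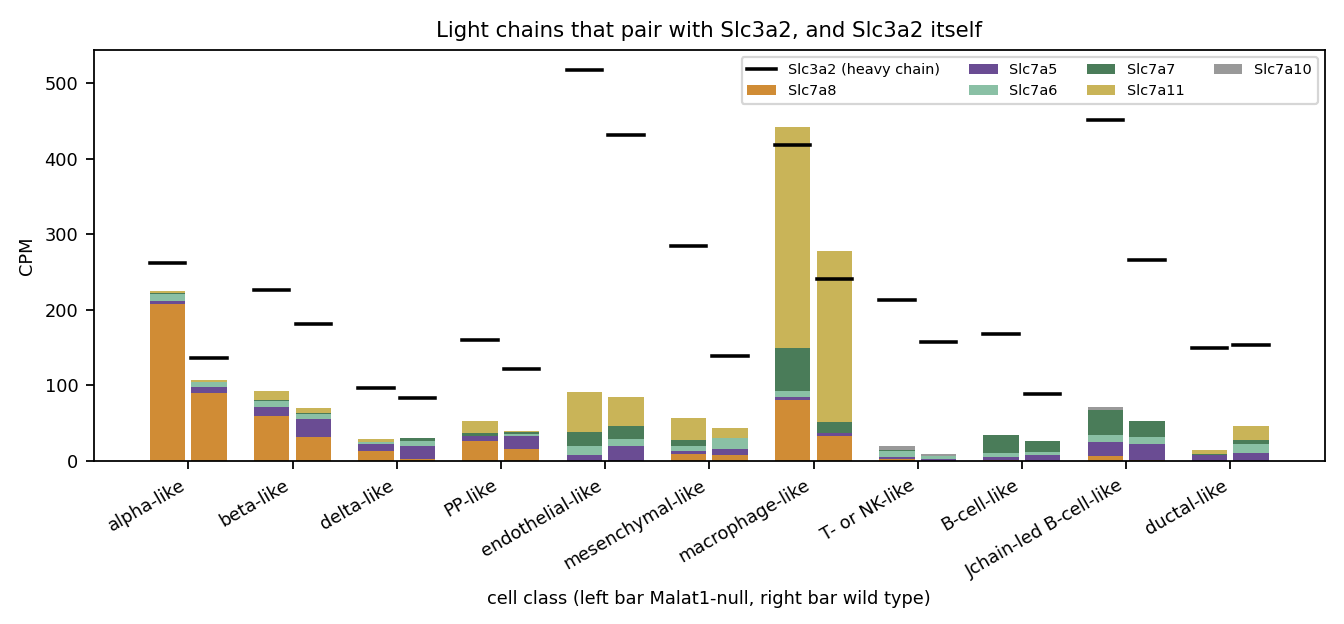
Stacked CPM of 6 light chains and the CPM of the heavy chain Slc3a2 (black line) by class, Malat1-null bar left of the wild-type bar. Light chains come near the Slc3a2 line in alpha-like barcodes, through Slc7a8, and pass it in macrophage-like barcodes, through Slc7a11; endothelial-like barcodes have the highest line (518 CPM in Malat1-null, 432 CPM in wild type) over low bars.

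Glutamine carriers other than Slc38a4 and Slc38a5 were led by cells outside the endocrine classes. Slc38a2 (SNAT2), a carrier of neutral amino acids that cells induce when amino acids run short, stood at 500 CPM (456 to 548) in Malat1-null and 565 CPM (532 to 600) in wild-type endothelial-like barcodes. In B-cell-like barcodes Slc38a2 was at 287 CPM in Malat1-null and 298 CPM in wild type, and in beta-like ones at 90.6 CPM in Malat1-null and 68.2 CPM in wild type. Slc38a1 (SNAT1) stood highest in the immune classes: B-cell-like barcodes held 132 CPM (111 to 156) in Malat1-null and 118 CPM (101 to 138) in wild type, T- or NK-like ones 91.3 CPM in Malat1-null and 102 CPM in wild type, and macrophage-like ones 71.4 CPM in Malat1-null and 74.0 CPM in wild type. Ductal-like barcodes came next, with 37.9 CPM (16 UMIs) in Malat1-null and 30.7 CPM (195 UMIs) in wild type. Their interval overlapped the macrophage-like one in Malat1-null. Beta-like barcodes held 0.112 CPM of Slc38a1 (6 UMIs) in Malat1-null and 0.317 CPM (12 UMIs) in wild type.

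Slc1a5 (ASCT2), an exchanger of glutamine and other neutral amino acids, was highest in Jchain-led B-cell-like barcodes, at 81.5 CPM (66.8 to 98.4) in Malat1-null and 61.2 CPM (47.3 to 78.0) in wild type. Mesenchymal-like barcodes held 67.5 CPM in Malat1-null and 37.0 CPM in wild type of Slc1a5 and B-cell-like ones 51.7 CPM in Malat1-null and 38.7 CPM in wild type, with intervals that overlapped their neighbours in the order. In beta-like barcodes Slc1a5 was at 1.496 CPM in Malat1-null and 1.82 CPM in wild type. Scaled to total UMIs, as free RNA is, that was 0.850 CPM in Malat1-null and 1.19 CPM in wild type. Both were below its free-RNA level of 14.4 CPM in Malat1-null and 11.3 CPM in wild type. Slc7a5 (LAT1; chromosome 8, 121881150 to 121907694, minus strand) was low in every class, between 2.77 and 18.9 CPM in Malat1-null and between 2.82 and 23.9 CPM in wild type. The beta-like and Jchain-led B-cell-like classes were its 2 highest in both libraries, and their intervals overlapped in both.

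The share of barcodes with a UMI was compared after each barcode was thinned to 1000 UMIs. In alpha-like barcodes Slc7a8 had a UMI in 25.8% (15.8 to 38.0%) of Malat1-null and 23.3% (9.93 to 42.3%) of wild-type barcodes, and Slc7a2 in 24.2% of Malat1-null and 23.3% of wild-type ones. In beta-like barcodes Slc7a8 was seen in 3.32% (2.54 to 4.25%) in Malat1-null and 1.74% (0.998 to 2.81%) in wild type, where insulin takes up 58.97% of all UMIs in Malat1-null and 51.8% in wild type. Slc38a5 was seen in 13 of 66 Malat1-null and 2 of 30 wild-type alpha-like barcodes. It was seen in 0 of 1809 Malat1-null and 0 of 919 wild-type beta-like barcodes. With 3 barcodes taken as the limit for 0, which is not an exact interval, up to 0.166% of Malat1-null and 0.326% of wild-type barcodes could hold a UMI at this thinned depth. Without thinning, 1.22% of Malat1-null and 0.544% of wild-type beta-like barcodes held one. After the same thinning endothelial-like barcodes had none of Slc7a8, Slc7a2, Slc38a4 or Slc38a5 in 39 Malat1-null and 86 wild-type barcodes. With the same limit of 3 barcodes, up to 7.69% in Malat1-null and 3.49% in wild type could hold a UMI at that depth. At full depth, with medians of 15352 UMIs in Malat1-null and 11328.5 in wild type, 2 of the wild-type ones held Slc38a4. After thinning, endothelial-like barcodes held Slc3a2 in 48.7% of Malat1-null and 38.4% of wild-type barcodes, and Slc38a2 in 46.2% of Malat1-null and 57.0% of wild-type ones. At full depth Slc7a8 was seen in 93.9% of Malat1-null and 80.0% of wild-type alpha-like barcodes and in 72.0% of Malat1-null and 65.9% of wild-type beta-like ones.

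**Figure D3:**
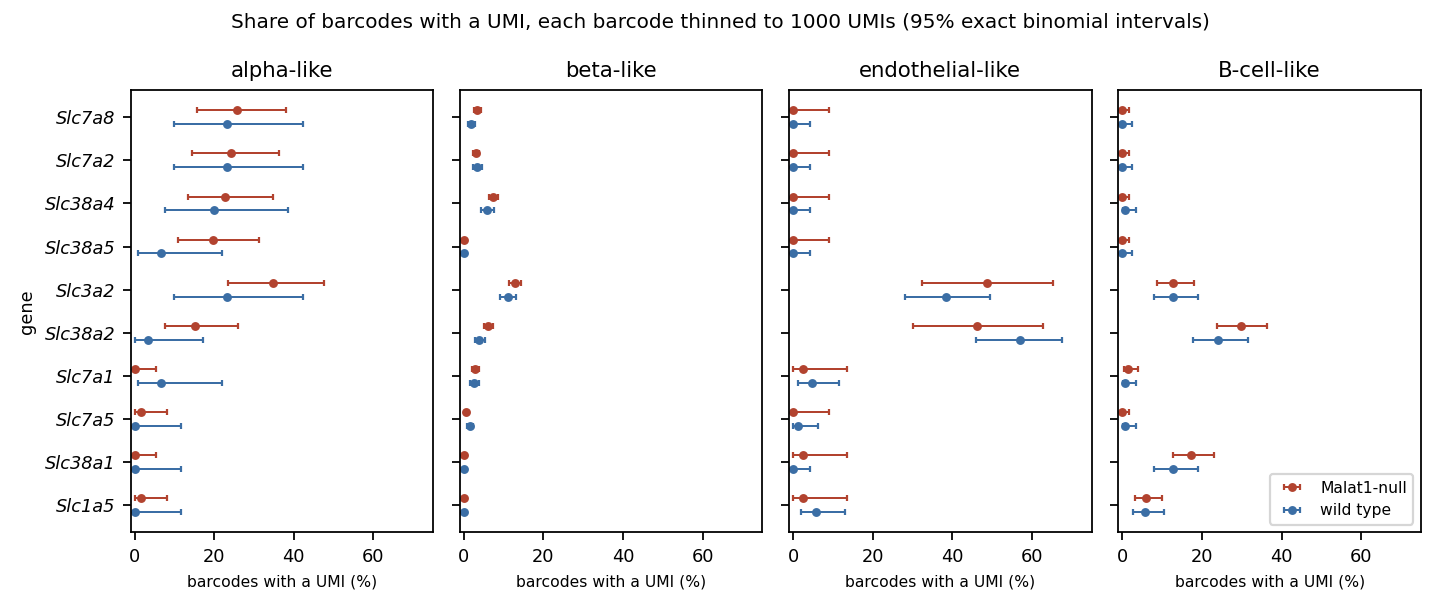
Percent of barcodes with at least 1 UMI after thinning to 1000 UMIs, with exact binomial intervals, in 4 classes; Malat1-null is drawn above wild type for each gene. The 4 alpha-led genes stand between 19.7% and 25.8% in Malat1-null alpha-like barcodes and between 6.67% (Slc38a5) and 23.3% in wild-type ones, and at 0 in endothelial-like barcodes.

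Malat1-null and wild-type islets were compared next within each class. A gene counted as measured with at least 10 CPM in a library and 50 UMIs over both, and as higher or lower beyond 1.5-fold. In beta-like barcodes 7 of the 10 members were measured, and Slc38a1, Slc38a5 and Slc1a5 were not. Of the 7, Slc7a8 was higher and Slc7a5 lower in Malat1-null and 5 were within 1.5-fold, where 2.09% of 8005 genes were higher and 2.4% lower. The median log2 ratio was 0.31 over the 7 members and 0.04 over all measured genes.

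Slc7a8 stood at 59.8 CPM in Malat1-null and 31.7 CPM in wild-type beta-like barcodes, a ratio of 1.89 (1.77 to 2.02). Slc7a5 stood at 12.1 CPM (11.1 to 13.0; 645 UMIs) in Malat1-null and 23.9 CPM (22.4 to 25.5; 907 UMIs) in wild type, which is 1.98-fold lower (1.79 to 2.20) in Malat1-null. The 2 light chains thus stood apart in opposite directions: Malat1-null beta-like barcodes held 4.96 Slc7a8 UMIs per Slc7a5 UMI (4.56 to 5.41) and wild-type ones 1.32 (1.21 to 1.45), a figure that does not depend on scaling. Alpha-like barcodes held 67.25 (26.0 to 249) in Malat1-null and 10.5 (5.09 to 25.1) in wild type, from only 4 and 8 Slc7a5 UMIs. Slc7a11, the cystine light chain, stood at 12.5 CPM in Malat1-null and 6.25 CPM in wild type.

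Slc3a2, the heavy chain, had a Malat1-null level above the wild-type one in each of the 7 compared classes other than acinar-like, with TMM and with total UMIs; in T- or NK-like barcodes the ratio went down to 0.866 in an alternative. By the same count Slc7a5 was below in all 7 classes. Slc7a8 was above in 6 and had no UMI in the other 1. Both rest on few UMIs in most classes. The share of all genes with 1 direction in all 7 was not counted. The classes share the 2 libraries and are not independent of each other.

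The other 5 measured members were within 1.5-fold. Slc3a2 stood at 226 CPM in Malat1-null and 181 CPM in wild type (ratio 1.247, 1.21 to 1.28), Slc38a2 at 90.6 CPM in Malat1-null and 68.2 CPM in wild type (1.33, 1.27 to 1.39) and Slc38a4 at 135 CPM in Malat1-null and 109 CPM in wild type (1.24, 1.19 to 1.29). Slc7a1 had a ratio of 1.13 (1.06 to 1.21) and Slc7a2 one of 1.03 (0.975 to 1.10). With scaling to total UMIs the median of all measured genes moved to -0.16, and the ratios of Slc7a1 and Slc7a2 fell below 1, to 0.989 and 0.902. That scaling called 45 genes higher and 286 lower, against 167 and 192 with TMM; Slc7a8 at 1.65 and Slc7a5 at 0.439 kept their calls.

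**Figure D4:**
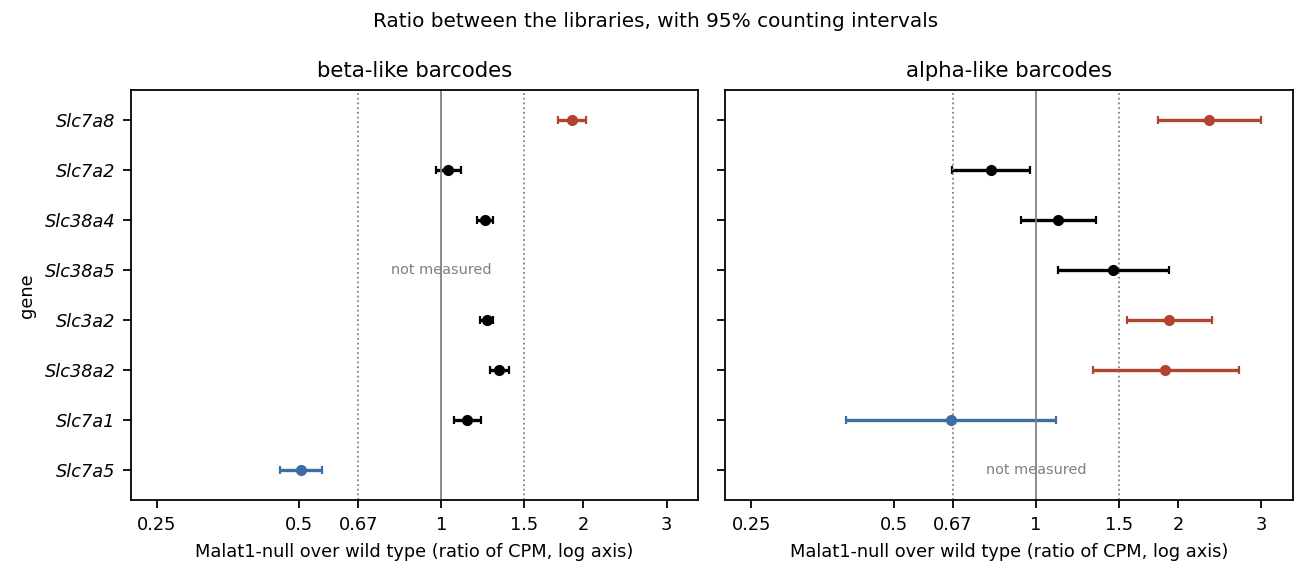
Ratio of Malat1-null to wild-type CPM of the measured members in beta-like (left) and alpha-like (right) barcodes on a log axis, with intervals; dotted lines mark 1.5-fold, red is higher and blue lower. Slc7a8 lies right of the upper line in both classes, at 1.89 and 2.32; Slc7a5 lies left of the lower line in beta-like barcodes and was not measured in alpha-like ones.

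Beta-like barcodes fell into 8 clusters, 5 of which held at least 20 barcodes of each library, in unequal numbers. The cluster led by Slc2a2, Ppp1r1a and Ucn3 held 598 Malat1-null and 56 wild-type barcodes, that led by Pdyn, Serpina7 and Crybb3 held 202 Malat1-null and 409 wild-type ones, and that led by Glp1r held 547 Malat1-null and 213 wild-type ones. The cluster led by Gem held 337 Malat1-null and 85 wild-type barcodes, and that led by Hspb1 held 53 Malat1-null and 95 wild-type ones. Slc7a8 was higher in Malat1-null in all 5, with ratios between 1.69 and 2.33, and Slc7a5 was lower in all 5, with ratios between 0.484 and 0.677. In the Slc2a2 cluster, for instance, Slc7a5 was at 9.62 CPM in Malat1-null and 19.9 CPM in wild type, and in the Pdyn cluster at 18.5 CPM in Malat1-null and 27.4 CPM in wild type, the highest of the 5 clusters in each library.

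Within clusters the median log2 ratio of all measured genes ran between -0.07 and 0.39, so members were also read against it. Relative to that median Slc7a8 was between 1.43 and 2.41 and Slc7a5 between 0.408 and 0.661. Slc3a2 had ratios between 1.39 and 1.59 (between 1.11 and 1.46 relative to the median), Slc38a2 between 1.35 and 1.89 (1.24 to 1.45) and Slc38a4 between 1.248 and 1.57 (1.06 to 1.65), each above the median in 5 of 5 clusters. Slc7a1, with ratios between 1.037 and 1.669 (1.034 to 1.335 relative to the median), was also above it in 5 of 5. Slc7a2 was above it in 1 of 5. The share of all genes above it in 5 of 5 was not counted. With the 5 clusters given equal weight the ratios were 2.08 for Slc7a8, 0.612 for Slc7a5, 1.54 for Slc38a2 and 1.45 for Slc3a2. This weighting was chosen after seeing the data. Its ratios were not read against the median of all measured genes. The Slc38a2 ratio then passed 1.5-fold, but relative to the median within clusters Slc38a2 stayed below that fold, between 1.24 and 1.45. The share of all genes beyond 1.5-fold under this weighting is not given. Clusters were made from the same cells' expression, though without the transporters, so matching on them matches on their leading genes.

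**Figure D5:**
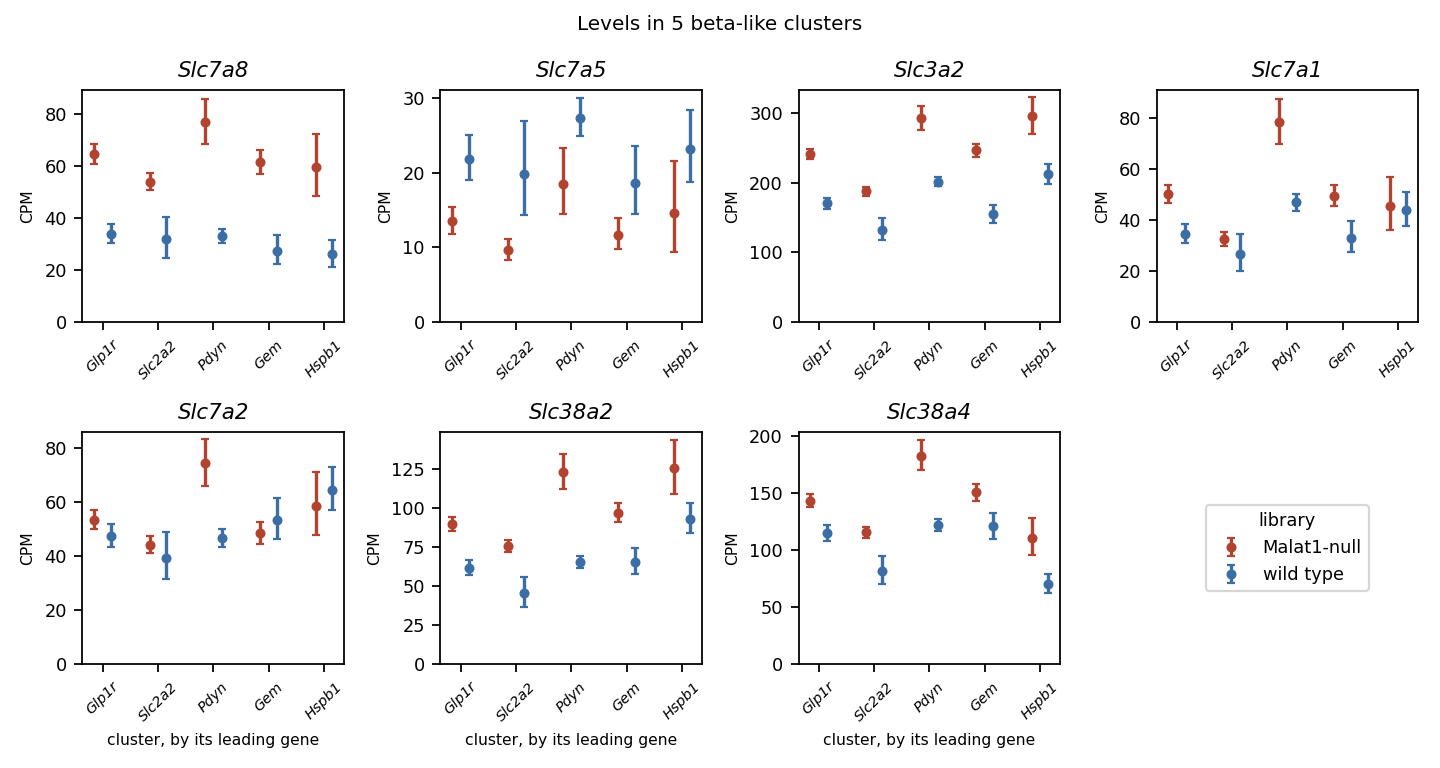
CPM of the 7 measured transporters in 5 beta-like clusters, each named by its leading gene, with exact Poisson intervals; Malat1-null points are left of wild-type ones. Slc7a8 lies higher in Malat1-null in all 5 clusters and Slc7a5 lower in all 5, while Slc7a2 has no common direction.

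In alpha-like barcodes 7 members were measured: Slc7a8, Slc3a2 and Slc38a2 were higher in Malat1-null and Slc7a1 lower, where 10.3% of 4581 genes were higher and 4.72% lower. The median log2 ratio was 0.54 over these members and 0.13 over all measured genes. Slc7a8 stood at 208 CPM in Malat1-null and 89.6 CPM in wild type (ratio 2.32, 1.81 to 3.00) and Slc3a2 at 262 CPM in Malat1-null and 137 CPM in wild type (1.91, 1.56 to 2.36), a call that held in 10 of 11 alternatives, with a lowest ratio of 1.32. Slc38a2 stood at 92.1 CPM in Malat1-null and 49.1 CPM in wild type (1.88, 1.32 to 2.70), a ratio that turned to 0.881 (0.425 to 1.69) at a UMI minimum set from each library's 99th percentile of UMIs. Slc7a1 was at 24.8 CPM in Malat1-null and 37.4 CPM in wild type, 1.51-fold lower (0.907 to 2.52), an interval that includes no difference; the call held in 6 of 11 alternatives.

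The remaining alpha-like members were within 1.5-fold: Slc38a5 had a ratio of 1.46 (1.12 to 1.92; between 0.523 and 1.62 over 11 alternatives), Slc38a4 one of 1.11 (0.929 to 1.34), and Slc7a2 one of 0.804 (0.665 to 0.974). Slc7a5 had too few UMIs there to be measured. In the cluster that both libraries share (17 Malat1-null and 30 wild-type barcodes), Slc7a8 was at 199.5 CPM in Malat1-null and 89.6 CPM in wild type (ratio 2.23, 1.56 to 3.15), Slc3a2 at a ratio of 1.69 (1.24 to 2.28) and Slc38a2 at 2.66 (1.69 to 4.18). Slc38a5, which was among the 10 leading genes of the cluster of Malat1-null barcodes only, had a ratio of 1.11 (0.703 to 1.72) in the shared one.

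Classes with under 20 barcodes in a library (PP-like, macrophage-like, mesenchymal-like and ductal-like) have levels above but no Malat1-null to wild-type ratio here; in the others few members passed 1.5-fold. Slc3a2 was higher in Malat1-null B-cell-like barcodes, at 168 CPM against 88.9 CPM in wild type (1.89, 1.495 to 2.39), where 6.18% of 4725 genes were higher and 6.18% lower. It was also higher in Jchain-led B-cell-like ones, at a ratio of 1.69 (1.47 to 1.96), where 17.2% of 4634 genes were higher and 9.99% lower; that call held in 4 of 7 alternatives, with a lowest ratio of 1.19. Slc7a1 was 1.70-fold lower (0.916 to 3.29) in Malat1-null B-cell-like barcodes, from 16 UMIs in Malat1-null and 35 in wild type, a call that held in 5 of 10 alternatives.

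Slc38a2 was higher in Malat1-null delta-like barcodes, at 126 CPM against 77.1 CPM in wild type (1.64, 1.20 to 2.27), where 9.69% of 4035 genes were higher and 4.26% lower; the call held in 6 of 10 alternatives. Slc1a5 had a ratio of 1.55 (0.947 to 2.50) in T- or NK-like barcodes, where 5.92% of 5088 genes were higher and 10.9% lower. In endothelial-like barcodes Slc1a5 was 1.57-fold lower (0.960 to 2.66), where 8.02% of 5588 genes were higher and 15.6% lower. Both Slc1a5 intervals include no difference. Slc7a5 had too few UMIs to be measured in endothelial-like barcodes, with 7 UMIs (7.50 CPM) in Malat1-null and 36 (19.0 CPM) in wild type, 2.54-fold lower (1.11 to 6.75).

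Genes that ranked most like each member across the 24 class and library sums were listed as a description, by Pearson's r of log2(CPM + 10) over 5012 other genes; the points include the acinar-like sums and share 2 libraries. Slc38a4 was most like Slc30a8, the zinc carrier of insulin granules (r = 0.977), Maob, a monoamine oxidase (0.960), and Fmn2 (0.937). Slc38a5 was most like Gfra3 (0.862), the alpha-cell transcription factor gene Irx2 (0.793) and Ptprd (0.774), and Slc7a2 most like Ptprd (0.906), Il1r1 (0.891) and Ttr (0.890). Slc7a8 was most like Lpl, lipoprotein lipase (0.864), Tmsb15b2 (0.821) and Atp6v1b2, a subunit of the proton pump (0.808). Slc38a2 was most like Rasgrp3 (0.916), N4bp3 (0.856) and Ahr, the TCDD receptor gene (0.847). Slc38a1 was most like Mif4gd (0.936), Sh3bgrl3 (0.933) and Arhgap30 (0.928), Slc1a5 most like the mitochondrial ribosome genes Mrpl35 (0.867) and Mrpl18 (0.853) and Polr1d (0.855), and Slc3a2 most like Entpd1 (0.782), Akt1 (0.777) and Sh3glb1 (0.746).

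Other genes of amino acid handling were counted in beta-like barcodes from lists chosen with earlier results of these data known. Of 28 genes of the amino acid response and targets of ATF4, the transcription factor that amino acid shortage induces, 23 were measured, 5 were higher in Malat1-null and none lower, where 2.09% of all measured genes were higher and 2.4% lower (median log2 ratio 0.30, against 0.04 over all measured genes). These 5 calls rest on the scaling: with total UMIs none of the 23 was beyond 1.5-fold, and Atf4 stood at a ratio of 1.39. Atf4 itself stood at 385 CPM in Malat1-null and 242 CPM in wild type (ratio 1.59, 1.56 to 1.63). Chac1, which degrades glutathione, had a ratio of 1.62 (1.52 to 1.72), Ppp1r15a, a phosphatase subunit of the stress response, one of 1.62 (1.56 to 1.68), and the transcription factor gene Cebpb one of 1.54 (1.498 to 1.58). Nupr1, the list's highest gene, was at 1005 CPM in Malat1-null and 1008 CPM in wild type, and Atf5 at 430 CPM in Malat1-null and 295 CPM in wild type. In alpha-like barcodes the same list had 1 gene higher and 3 lower among 10 measured, where 10.3% of all measured genes were higher and 4.72% lower (median -0.30, against 0.13 over all measured genes). The stress transcription factor gene Atf3 was at 27.1 CPM (35 UMIs) in Malat1-null and 216 CPM (202 UMIs) in wild type, and Nupr1 at 7.74 CPM in Malat1-null and 56.6 CPM in wild type.

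Glul, glutamine synthetase, was the 1 gene apart among 14 measured genes of glutamine, glutamate and arginine metabolism: it stood at 268 CPM in Malat1-null and 529 CPM in wild type, 1.98-fold lower (1.93 to 2.02), where 2.4% of all measured genes were lower; with total UMIs it kept its call at a ratio of 0.441. Glul was also among the 10 leading genes of the Pdyn cluster, which is larger in wild type, and stood lower in Malat1-null alpha-like barcodes too, at 104 CPM against 245 CPM. Gclm, a glutathione-synthesis subunit, was at 251 CPM in Malat1-null and 222 CPM in wild type. Of 33 other cell-surface amino acid transporters 6 were measured, and 1, Slc7a11, was higher, at a ratio of 2.00 (1.72 to 2.33), where 2.09% of all genes were; with total UMIs it was under the 10 CPM minimum. The taurine carrier Slc6a6, at 148 CPM in Malat1-null and 125 CPM in wild type, and Slc43a2, at 70.9 CPM in Malat1-null and 64.6 CPM in wild type, were the highest of that list and within 1.5-fold. All 12 measured carriers of lysosomes and mitochondria (Slc7a14 and Sfxn1 highest), all 20 cytosolic aminoacyl-tRNA synthetases (Eprs and Sars highest, median 0.15) and all 27 measured genes of amino acid sensing by mTORC1 (Lamtor2 at 161 CPM in Malat1-null and 172 CPM in wild type, Rheb at 107 CPM in Malat1-null and 126 CPM in wild type) were within 1.5-fold. Nearly all measured genes of this class were within that fold, so these counts are near the background.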

How the data were processed

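The unit of the deposited matrices is raw UMI counts per gene and barcode, made by the authors with Cell Ranger: per the file headers version 4, per the submitters' processing notes version 2.1.0 with build mm10. Gene positions were read from GENCODE M21 (GRCm38) and promoters from RefSeq (GRCm38.p6). TCDD dose and time are not given in the sources used here; libraries treated with DMSO were not used.

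Barcodes needed 1000 UMIs and at most 20% mitochondrial UMIs, which removed 286 Malat1-null and 69 wild-type barcodes. Scrublet called 8 (0.275%) doublets in Malat1-null and 17 (0.811%) in wild type, which were removed. In the Malat1-null library that is under 0.5%. Barcodes that mixed insulin with another class's genes, 169 in Malat1-null and 31 in wild type, stayed unnamed. With whole clusters left unnamed, 407 Malat1-null (14.0%) and 73 wild-type (3.51%) barcodes entered no class. A cluster led by Gcg, with 78 Malat1-null and 15 wild-type barcodes, was among these. It scored highest for the beta markers and was left unnamed because it also carried the hormone of another class. The 2 libraries shared 1 barcode sequence. Barcodes were clustered with scanpy 1.11.5 (2000 variable genes, 30 components, Leiden resolution 1) without the transporters, the other listed genes and Malat1. Mitochondrial genes and the sex-linked genes Xist, Ddx3y, Eif2s3y, Kdm5d and Uty were also left out. Clusters were named from 14 marker lists, and hormone limits in the naming were set after a first clustering. UMIs were summed per class and library and scaled with TMM factors from edgeR 4.0.16 (used for scaling only). Intervals are exact Poisson, binomial or conditional binomial, from scipy 1.17.1. The calls and the ratio intervals were checked on simulated beta-like sums that held counting error only. Free RNA was taken from barcodes of 10 to 100 UMIs.

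All 10 members are named. Of each other list the genes beyond 1.5-fold (at most 4 per direction) and the 2 with the highest beta-like level are named; alpha-like Atf3, Nupr1 and Glul, and Slc7a11, Slc7a7 beside the light chains, were named after their values were seen. For each member with 50 CPM in a class of both libraries the 3 most alike genes are named. The members and lists were chosen with earlier results of these data known. Alternatives changed the UMI minimum, scaling, clustering, naming, filters, fold and thinning.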

Additional observations from a re-analysis of the deposited data

Results flagged for a closer look

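Slc1a5, the exchanger of glutamine and other neutral amino acids, stood on opposite sides of 1 in 2 classes. Its Malat1-null to wild-type ratio was 1.55 in T- or NK-like barcodes (28 UMIs in Malat1-null and 53 in wild type) and 0.637 in endothelial-like ones (22 in Malat1-null and 70 in wild type). The difference between the classes was not tested, and each interval includes no difference.

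Malat1 stood at 1577 CPM in the Malat1-null library's barcodes of 10 to 100 UMIs and at 5394 CPM in those of the wild-type library. These barcodes were taken as free RNA and enter no ratio between the libraries, but the free-RNA levels and the figure of 3.75% rest on them. In named Malat1-null classes Malat1 was far lower, at 0.276 CPM in beta-like barcodes and at most 3.63 CPM (ductal-like). How far the low barcodes stand for RNA freed from these classes was not tested. Where this Malat1 came from was not tested.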

How the results depend on the processing

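No paired analysis was possible because each group has 1 library and the ratios come from no test. Over 11 alternatives the beta-like calls of Slc7a5 (ratios 0.439 to 0.612) and Slc7a8 (1.65 to 2.08) and the alpha-like call of Slc7a8 (1.99 to 2.44) were unchanged. Changes of the CPM minimum and of the fold are not among these 11 and are given further on. The beta-like extremes were 0.439 and 1.65 with total UMIs, and 0.612 and 2.08 with clusters equally weighted; that weighting, the single alpha-like cluster, keeping insulin-mixed barcodes and leaving out acinar-like barcodes were chosen after seeing the data. With the UMI minimum from the 99th percentile, Slc38a2 in alpha-like barcodes turned to 0.881 and Slc7a1 in B-cell-like ones to 1.01, 1 member was higher and 2 were lower in alpha-like barcodes, and 6 of 10 members kept their highest class in each library. That class count was also 6 with total UMIs and with the total without hormone and mitochondrial genes and Malat1, and members marked by a class then numbered 5 and 4, against 2. The share of all genes marked by a class was not counted under either scaling. At the 99th-percentile minimum Slc3a2 was highest in Jchain-led B-cell-like barcodes, at 2.32 times the next class in Malat1-null and 1.93 in wild type. Slc1a5 was highest in mesenchymal-like barcodes of both libraries with total UMIs. Its highest class also changed with Leiden resolution 2 and with each library clustered alone. Members lower in alpha-like barcodes numbered 0, against 1, with each library clustered alone, doublets kept, barcodes classed by markers, total UMIs, a 50 CPM minimum or a fold of 2. At a fold of 2, 1 member was higher in alpha-like barcodes and 0 were higher or lower in beta-like ones; at 50 CPM 0 were lower there. Of all beta-like genes, 45 were higher with total UMIs, 44 higher and 54 lower at 50 CPM, 514 and 746 with no CPM minimum, and 33 and 78 at a fold of 2, against 167 and 192. Of 660 levels 121 moved beyond their interval, and of 120 shares 83 did. Where an alternative left a class out of a library, it gave no value. Depth limits small classes: 30 wild-type alpha-like barcodes set every alpha-like ratio, and Slc7a5 could be measured in beta-like barcodes only among the classes compared; the cause of each change was not tested.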
